A study of Homo sapiens with 9 samples.

Results

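DKK1 and a set of Wnt pathway feedback genes were followed in a highly metastatic and a poorly metastatic line grown from single SW480 colorectal carcinoma cells, and in the population that both lines came from. The members are 10 genes: DKK1, NOTUM, AXIN2, NKD1, RNF43, ZNRF3, LGR5, SP5, LEF1 and TCF7. Every probe set annotated to exactly 1 of these symbols was taken, which gave 17 of the 54675 probe sets on the arrays and covered 9 of the 10 genes. No probe set used here carried the symbol TCF7, so the RNA level of TCF7 was not analysed here.

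The study measured RNA levels with Affymetrix arrays in 3 groups of 3 arrays each. SCP51 is the single-cell line with high, and SCP58 the one with low, metastatic potential when grafted orthotopically in mice. SW480/EGFP is their parent, a human colorectal carcinoma line carrying EGFP, so EGFP and the SW480 background are shared by all 3 groups. All cells were cultured untreated, each metastatic class is 1 clonal line, and every difference below is therefore between lines. The labels name biological replicates but not whether their cultures were grown apart, and the p-values reflect array-to-array spread alone.

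Wnt ligands bind a Frizzled receptor and the co-receptor LRP5 or LRP6, which stops the destruction complex of APC, AXIN and GSK3 from degrading beta-catenin. Stabilised beta-catenin enters the nucleus and, with TCF or LEF proteins, switches on target genes. Several of those targets encode brakes on the same pathway, and their levels are widely read as a gauge of its activity in the intestine. SW480 cells carry a truncated APC, so their beta-catenin pathway is active without a ligand, and AXIN2 and LGR5 are standard markers of that state in the colon.

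The short DNA core read by TCF and LEF proteins is CTTTGA or CTTTGT. The window of 300 bases around the transcription start of DKK1 was planned for display, and that of SP5 was added for its matches. They held the most such matches among the 5 members with a window. DKK1 was called higher in SCP51, and SP5 had lower values there that were not called. Each runs from 250 bases before to 50 bases after the start, 5′ to 3′ on the gene's strand, from RefSeq on GRCh38.p14. Capitals mark CTTTGA or CTTTGT, which read TCAAAG or, for the second, ACAAAG when they lie on the opposite strand. The DKK1 window is chr10:52314031-52314330 and the SP5 window is chr2:170715087-170715386, both on the + strand.
DKK1: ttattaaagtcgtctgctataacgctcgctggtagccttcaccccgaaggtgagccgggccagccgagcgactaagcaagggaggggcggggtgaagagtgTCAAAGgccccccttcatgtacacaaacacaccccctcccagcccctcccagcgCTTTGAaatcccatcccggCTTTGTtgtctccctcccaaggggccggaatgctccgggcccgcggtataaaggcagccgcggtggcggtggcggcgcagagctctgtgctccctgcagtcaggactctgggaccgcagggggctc
SP5: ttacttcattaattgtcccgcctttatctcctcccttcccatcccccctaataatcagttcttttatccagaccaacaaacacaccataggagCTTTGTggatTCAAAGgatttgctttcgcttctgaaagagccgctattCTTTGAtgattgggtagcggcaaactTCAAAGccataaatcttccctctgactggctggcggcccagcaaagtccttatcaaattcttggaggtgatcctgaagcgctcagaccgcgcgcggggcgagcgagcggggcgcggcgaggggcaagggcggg

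The DKK1 window held 3 matches on either strand and the SP5 window 4. Of 34943 windows of that length, 26.2% held at least 1 match, 0.89% held 3 or more and 0.112% held at least as many as SP5. The SP5 window was picked on this same count. The longer form CTTTGAT, which overlaps CTTTGA, occurred in the SP5 window and not in that of DKK1, and in 2.63% of all windows. Windows were at hand for 5 of the 10 members: both RNF43 windows held 1 match, the TCF7 windows 0 and 2, and the LEF1 window 0. A match describes these letters and does not show that a factor binds there.

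The values below are signals on the authors' linear scale, and the tests are on log2 signal. A gene was tested when a probe set of it lay above the median of its array on at least 3 of 9 arrays. It was called when its adjusted p was under 0.05 (limma, Benjamini-Hochberg over 13586 genes, 1 probe set for each gene). Array medians ranged from 41.2 to 44.3. Of the colorectal epithelial markers, 8 of 11 lay above the array median on all 9 arrays, among them EPCAM and CDH1, while KRT20 and LGALS4 lay below it on every array. Summed signals of 6 fibroblast markers were 262 to 303 in SCP51, 284 to 336 in SCP58 and 321 to 332.5 in SW480/EGFP, with COL1A1 above the array median on all 9 arrays and COL1A2, COL3A1, LUM and THY1 on none. Of 5 leukocyte markers measured, CD3D and CD3E lay above the array median on all 9 arrays and PTPRC, CD14 and LYZ on none, with summed signals of 174 to 221 in SCP51, 198 to 247 in SCP58 and 206 to 261 in SW480/EGFP. Of 4 endothelial markers VWF lay above it on all 9 arrays and CDH5 on none, with summed signals of 140.4 to 176 in SCP51, 162 to 179 in SCP58 and 157 to 193 in SW480/EGFP. The part of these markers in the results was not tested. SCP51 replicate 1 stood apart, with correlations across genes of 0.891 to 0.911 with the other arrays, against 0.945 to 0.979 among the other 8 (genes are not independent replicates), so results are also given without it. The median gene was lower in SCP51 than in SCP58 by a log2 difference of -0.105, a shift that was -0.05 after quantile normalization.

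DKK1, which encodes a secreted protein that binds LRP5 and LRP6 and keeps Wnt ligands from using them, was the member with the clearest difference. Its only probe set, 204602_at, had signals of 4617, 5363 and 5185 in SCP51. They were 2198, 1993 and 1999 in SCP58, and 3004, 2256 and 2679.9 in SW480/EGFP. All 3 SCP51 arrays lay above the other 6, and the 3 SCP58 arrays lay below the 3 of the parent.

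In SCP51 DKK1 was 2.45-fold higher than in SCP58, a log2 difference of 1.29 ± 0.11 (SE, 3 arrays a group, adjusted p by limma 0.00305). A difference at least that large in either direction was seen in 1.57% of all genes tested. Relative to the median gene, the log2 difference was 1.397. Against the parent DKK1 was 1.92-fold higher in SCP51, a log2 difference of 0.94 ± 0.11 (adjusted p = 0.00501), and 4.45% of all genes differed at least as much there. Without SCP51 replicate 1 the log2 differences were 1.36 from SCP58 and 1.004 from the parent (adjusted p = 0.000927 and 0.00216). DKK1 kept both calls in each of the 20 alternatives run. In RNA from whole cultures a lower level in each cell and fewer cells with the RNA cannot be told apart.

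Between SCP58 and the parent the DKK1 difference was -0.35 ± 0.11, with a 95% interval from -0.61 to -0.09 and an adjusted p of 0.405. The order of the levels was thus SCP51, SW480/EGFP and SCP58 from high to low, with the last pair not distinguished by the test. SCP51 is set against the same parent arrays as SCP58, so these comparisons are not independent.

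NOTUM encodes a secreted enzyme that strips the lipid from Wnt ligands and so inactivates them. Its probe set 228649_at lay close to the array median, at 40.4, 53.2 and 46.8 in SCP51, 50.7, 43.5 and 46.4 in SCP58, and 46.5, 45.8 and 44.7 in SW480/EGFP. The groups overlapped in all 3 comparisons. Log2 differences were -0.01, 0.03 and 0.04 for SCP51 against SCP58, SCP51 against the parent and SCP58 against the parent, with adjusted p of 0.927 or more. The 95% interval of the first ran from -0.30 to 0.29, so differences within it remain possible. The smallest difference that these arrays could detect was not computed.

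**Figure D1:**
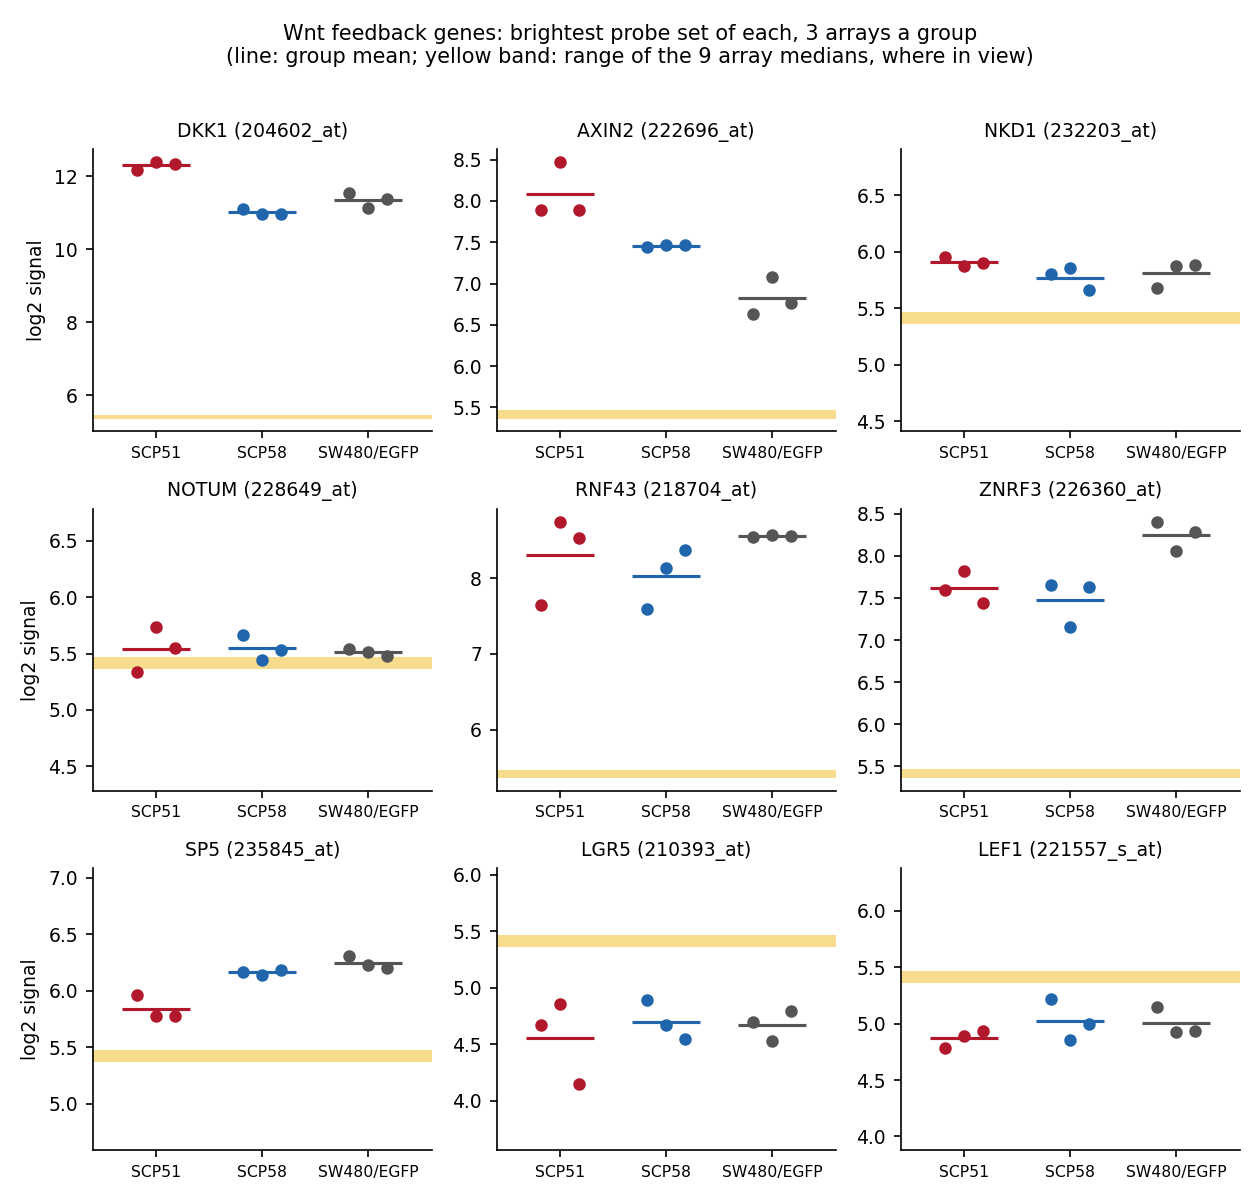
Log2 signal (vertical axis) of the brightest probe set of 9 genes on each of the 3 arrays of SCP51, SCP58 and SW480/EGFP. Points are arrays, lines are group means and the yellow band is the range of the array medians. DKK1 and AXIN2 are highest on all SCP51 arrays, ZNRF3 is highest on all SW480/EGFP arrays, and LGR5 and LEF1 lie below the band.

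AXIN2 encodes a scaffold of the destruction complex and is the feedback target most often used as a readout of beta-catenin. Its brightest probe set, 222696_at, had signals of 238, 355 and 238 in SCP51, 174, 176 and 177 in SCP58, and 99.0, 136 and 109 in SW480/EGFP. The 3 groups did not overlap, with SCP51 highest, SCP58 between and the parent lowest. SCP51 exceeded the parent 2.40-fold, a log2 difference of 1.26 ± 0.18 (SE, 3 arrays a group, adjusted p by limma 0.0109).

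The AXIN2 differences of SCP51 from SCP58 and of SCP58 from the parent did not pass the threshold. They were 0.63 ± 0.18 each, with 95% intervals from 0.21 to 1.05 and from 0.22 to 1.05 (adjusted p = 0.0958 and 0.343). Without SCP51 replicate 1 AXIN2 stood at 1.36 against the parent (adjusted p = 0.00597) and at 0.72 against SCP58 (adjusted p = 0.0513). The call against the parent was lost without parent replicate 1 (1.16, adjusted p = 0.054) or parent replicate 3 (1.23, adjusted p = 0.0611), and with only the 6 arrays compared (adjusted p = 0.0555).

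The rise of AXIN2 rested on 1 of its 4 probe sets. In 224176_s_at the signals were 73.4, 93.8 and 137 in SCP51, 75.2, 81.8 and 66.2 in SCP58, and 104, 65.9 and 55.4 in SW480/EGFP. Its groups overlapped, and the difference of SCP51 from the parent was 0.44 ± 0.28 (adjusted p = 0.441 over all probe sets). The probe set 222695_s_at lay near the array median and stood at -0.12 ± 0.13 in the same comparison. The fourth, 224498_x_at, lay above the median of 1 array and was not tested. With the mean of the probe sets that passed the filter, AXIN2 stood at 0.52 (adjusted p = 0.0561) in SCP51 relative to the parent. Relative to SCP58 this mean stood at 0.29 (limma adjusted p = 0.206).

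NKD1 encodes a cytoplasmic antagonist that binds Dishevelled. All 3 of its probe sets passed the filter and none was called by limma in any comparison, where 3.35%, 1.9% and 0.134% of 29132 probe sets were called in SCP51 against SCP58, SCP51 against the parent and SCP58 against the parent. Their unadjusted p lay between 0.232 and 0.973. The brightest, 232203_at, read 62.0, 58.7 and 59.7 in SCP51, 55.7, 57.8 and 50.7 in SCP58, and 51.1, 58.5 and 58.9 in SW480/EGFP. Its SCP51 arrays lay above those of SCP58, by 0.14 ± 0.11 (adjusted p = 0.493), and overlapped those of the parent. A second, 1553115_at, had the opposite sign, at -0.11 ± 0.15 (adjusted p = 0.723). The third, 229481_at, varied within each group, from 30.9 to 87.4 in SCP51, 36.7 to 75.04 in SCP58 and 27.4 to 84.6 in SW480/EGFP, and its groups overlapped.

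**Figure D2:**
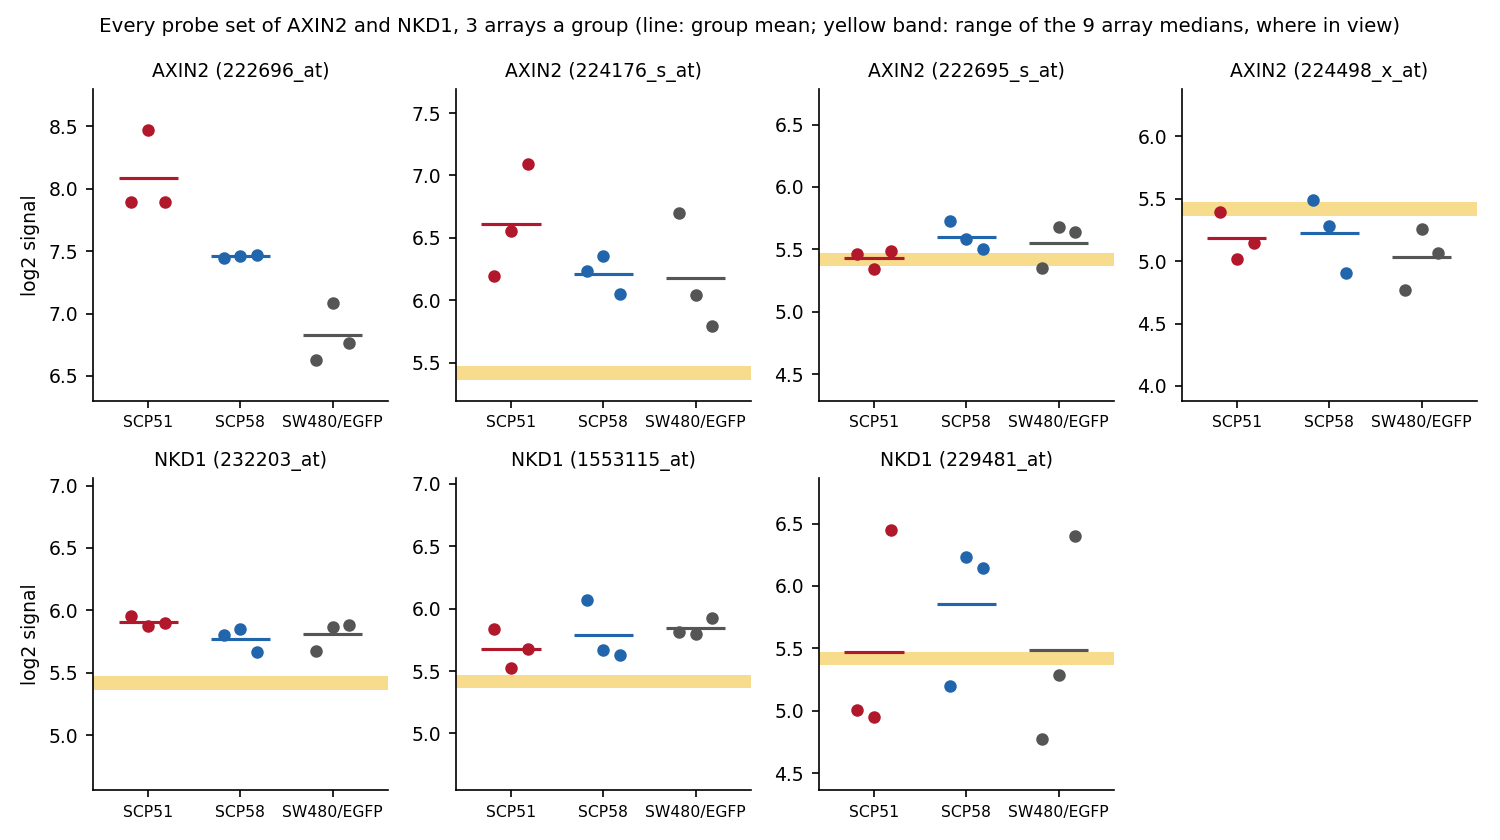
Log2 signal of each of the 4 probe sets of AXIN2 (upper row) and the 3 of NKD1 (lower row) on the 3 arrays of SCP51, SCP58 and SW480/EGFP. Points are arrays, lines are group means, and each panel spans the same number of log2 units. The 3 lines separate in AXIN2 222696_at and overlap in AXIN2 224176_s_at, and NKD1 229481_at varies as much within a line as between lines.

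RNF43 and ZNRF3 encode related membrane ubiquitin ligases that remove Frizzled receptors from the cell surface. ZNRF3, on probe set 226360_at, had signals of 194, 226 and 174 in SCP51, 200.4, 142 and 197 in SCP58, and 339, 265 and 309.9 in SW480/EGFP. Every array of either single-cell line lay below all 3 parent arrays. The log2 differences from the parent were -0.62 ± 0.18 in SCP51 and -0.77 ± 0.18 in SCP58 (SE, 3 arrays a group), and neither was called (adjusted p by limma 0.11 and 0.247). Both share the parent arrays. The difference of SCP51 from SCP58 was 0.15 ± 0.18, with a 95% interval from -0.26 to 0.55 (adjusted p = 0.672). With array weights, which give less weight to arrays that scatter more, ZNRF3 passed the threshold against the parent in SCP51 (-0.67, adjusted p = 0.0408) and in SCP58 (-0.95, adjusted p = 0.00784).

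RNF43, on 218704_at, had signals of 199, 429 and 371 in SCP51, 193, 279.7 and 332 in SCP58, and 372, 379.9 and 376 in SW480/EGFP. The parent arrays lay close together and those of the single-cell lines scattered, with a within-group SD of 0.02 log2 units in the parent, 0.59 in SCP51 and 0.40 in SCP58. The SCP58 arrays all lay below the parent, at -0.52 ± 0.30 (adjusted p = 0.748), while those of SCP51 overlapped both groups. The low SCP51 value came from replicate 1. Without that array the difference from the parent was 0.09, against -0.25 ± 0.30 with it (adjusted p = 0.849 and 0.663). The difference from SCP58 was 0.61 without it, against 0.28 ± 0.30 with it (adjusted p = 0.111 and 0.632). Over all single arrays left out, the difference from SCP58 ran from 0.055 to 0.609. It was 0.055 without SCP58 replicate 1, the lowest array of SCP58 (adjusted p by limma 0.944), and 0.056 without SCP51 replicate 2 (0.939).

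LGR5 encodes the R-spondin receptor that marks intestinal stem cells, and its engagement turns the RNF43 and ZNRF3 ligases off. Both of its probe sets lay below the median on all 9 arrays and were not tested. On 210393_at the signals were 25.4, 28.9 and 17.8 in SCP51, 29.7, 25.4 and 23.3 in SCP58, and 25.9, 23.1 and 27.7 in SW480/EGFP, which overlapped. On the dimmer 213880_at they were 10.6, 8.71 and 11.8 in SCP51, 15.9, 14.3 and 12.5 in SCP58, and 14.5, 12.1 and 16.3 in SW480/EGFP. The SCP51 arrays were the lowest there, at a level where a fold change has little meaning. With no filter LGR5 stood at -0.14 ± 0.19 between SCP51 and SCP58 (adjusted p = 0.752).

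SP5 encodes a zinc finger transcription factor and a direct target of beta-catenin that represses other targets. Its probe set 235845_at had signals of 62.2, 54.6 and 54.9 in SCP51, 71.9, 70.5 and 72.9 in SCP58, and 79.3, 74.9 and 73.6 in SW480/EGFP. All SCP51 arrays were lower than the other 6, and those of SCP58 were just below the parent. The log2 differences of SCP51 were -0.33 ± 0.10 from SCP58 and -0.41 ± 0.10 from the parent (SE, 3 arrays a group, adjusted p by limma 0.0992 and 0.0674), so SP5 was not called. Relative to the median gene these differences were -0.22 and -0.31. Without SCP51 replicate 1 they were -0.39 and -0.47, and the difference from the parent was called (adjusted p = 0.064 and 0.0457). SP5 in SCP58 stood at -0.08 ± 0.10 relative to the parent (adjusted p = 0.959).

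LEF1 encodes a DNA-binding partner of beta-catenin and is itself a target in colorectal cancer. Its 3 probe sets lay below the median on all 9 arrays and were not tested. The brightest on average, 221557_s_at, read 27.6, 29.7 and 30.6 in SCP51, 37.3, 29.0 and 31.9 in SCP58, and 35.4, 30.4 and 30.7 in SW480/EGFP. With no filter LEF1 stood at -0.16 ± 0.13 between SCP51 and SCP58 (adjusted p = 0.584). The dimmer 210948_s_at was higher on 1 array of each group, at 41.3, 36.0 and 39.5 in SCP51, SCP58 and SW480/EGFP, and between 10.4 and 14.5 on the others, so its variation did not follow the lines. The third, 221558_s_at, read 7.83, 6.99 and 27.5 in SCP51, 26.0, 22.0 and 26.5 in SCP58, and 19.4, 23.2 and 24.8 in SW480/EGFP. There SCP51 replicates 1 and 2 were the lowest of the 9 arrays and replicate 3 the highest.

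Of the 7 members tested, 1 was called between SCP51 and SCP58 (DKK1, higher), where 4.09% of all genes tested were called and 1.48% were called higher. The arrays of these lines did not overlap for 3 of the 7 with SCP51 higher (DKK1, AXIN2 and NKD1) and for 1 with SCP51 lower (SP5), beside 7.92% and 17.2% of all genes tested. AXIN2 and NKD1 count here by their brightest probe set, and AXIN2 222695_s_at had SCP51 lower without overlap. In SCP51 against the parent 2 of 7 were called, DKK1 and AXIN2, both higher, beside 2.96% of all genes called and 1.38% called higher. The arrays did not overlap for 2 of 7 with SCP51 higher (DKK1 and AXIN2) and for 2 with SCP51 lower (ZNRF3 and SP5), beside 9.5% and 18.5% of all genes. In SCP58 against the parent none of the 7 was called by limma, beside 0.14% of all genes, and 3 had an unadjusted p under 0.05 (DKK1, AXIN2 and ZNRF3), beside 8.6% of all genes. Here array weights called the same 3 genes, DKK1 at -0.41, AXIN2 at 0.68 and ZNRF3 at -0.95 (adjusted p = 0.0141, 0.0145 and 0.00784). Array weights called 1351 of all 13586 genes in this comparison, against 19 without them. The arrays did not overlap for 1 of 7 with SCP58 higher (AXIN2) and for 4 with SCP58 lower (DKK1, RNF43, ZNRF3 and SP5), beside 9.42% and 7.58% of all genes. The median log2 difference of the 7 members was 0.15, 0.03 and -0.08 in the order just given, beside -0.105, -0.10 and 0 for all genes. With array weights AXIN2 (0.66, adjusted p = 0.0386) and SP5 (-0.36, adjusted p = 0.0426) were called beside DKK1 between SCP51 and SCP58, and SP5 (-0.43, adjusted p = 0.0187) and ZNRF3 beside DKK1 and AXIN2 in SCP51 against the parent. That setting called 1527 and 1356 of all genes in these comparisons, against 555 and 402 without it.

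Over all genes the split of calls depended on scaling. Between SCP51 and SCP58, 201 were higher and 354 lower, and after quantile normalization 319 were higher and 302 lower. For SCP51 against the parent the split was 187 higher and 215 lower, and 246 higher and 169 lower after quantile normalization. DKK1 and AXIN2 were called higher against the parent under both scalings.

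**Figure D3:**
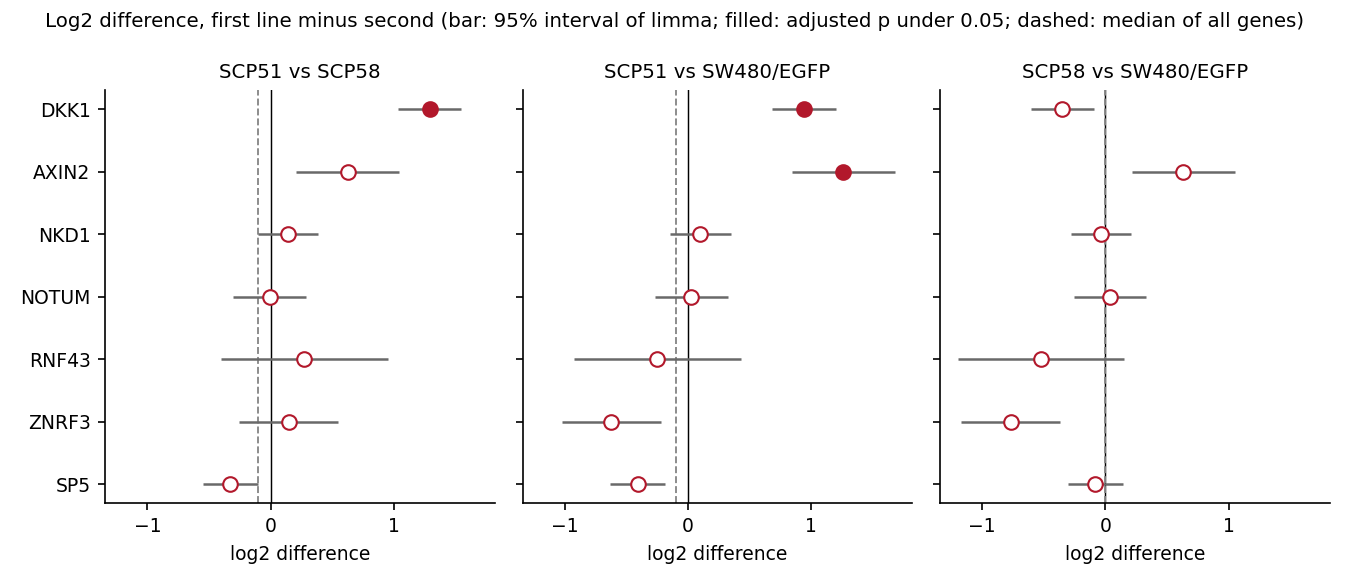
Log2 difference (horizontal axis) of the 7 tested genes in SCP51 against SCP58, SCP51 against SW480/EGFP and SCP58 against SW480/EGFP. Points are limma estimates with 95% intervals, filled points passed an adjusted p of 0.05, and the dashed line is the median of all genes tested. DKK1 is filled in both SCP51 panels, AXIN2 in the panel against the parent, and no point is filled for SCP58.

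Neighbours were counted for all 7 tested members, and those to be described at length were chosen with their values known. Over all genes tested, 4.09% were called in SCP51 against SCP58, 2.96% in SCP51 against the parent and 0.14% in SCP58 against the parent. Of the 10 tested genes nearest to DKK1 on chromosome 10, 5 on each side, none was called higher in SCP51 and 1 was called lower in each comparison of SCP51. Their median log2 difference was -0.22 between SCP51 and SCP58 and -0.30 between SCP51 and the parent, below the median of all genes, -0.105 and -0.10. Around AXIN2 on chromosome 17, 1 of 10 neighbours was called higher for SCP51 against the parent, beside 1.38% of all genes. The median of these 10 was 0.08. Around SP5 on chromosome 2, 2 of 10 neighbours were called lower for SCP51 against SCP58, with a median of -0.11. None of them was called in the other comparisons. Around NKD1, NOTUM and RNF43 no neighbour was called in any comparison. Around ZNRF3 on chromosome 22 none of 10 neighbours was called by limma in any comparison. An unadjusted p under 0.05 was reached by 3 of them in SCP51 against SCP58 and by 0 against the parent, and their medians were -0.12 in SCP51 and -0.09 in SCP58, each against the parent. The share of all genes with such a p was 8.6% for SCP58 against the parent and was not computed for SCP51.

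The genes whose pattern was most like that of DKK1 over the 9 arrays were LINC02901, MAMDC2, PRKX, TRAPPC2 and ZBED1, with Pearson correlations of 0.986, 0.984, 0.979, 0.974 and 0.970. They were taken among 4957 genes that varied at least 0.5 times as much as DKK1, of which 84 had a correlation above 0.9, and the arrays share their lines, so the correlations mainly reflect group means. LINC02901, a non-coding RNA gene, averaged 49.1 in SCP51, and 24.8 and 30.3, under the array medians, in SCP58 and SW480/EGFP. It passed the filter only through the SCP51 arrays, where DKK1 was also highest, so its place in this list carries no weight as support. MAMDC2, a gene of chromosome 9, averaged 182, 60.0 and 89.3 in SCP51, SCP58 and SW480/EGFP. PRKX, which encodes a protein kinase, averaged 148, 45.8 and 63.1 in SCP51, SCP58 and SW480/EGFP. PRKX, TRAPPC2 and ZBED1 lie on chromosome X in the annotation used, and the share of X genes among the 4957 was not computed. Among the other members the correlation with DKK1 was 0.63 for AXIN2, 0.51 for NKD1 and -0.84 for SP5, and between -0.01 and 0.19 for NOTUM, RNF43 and ZNRF3.

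**Figure D4:**
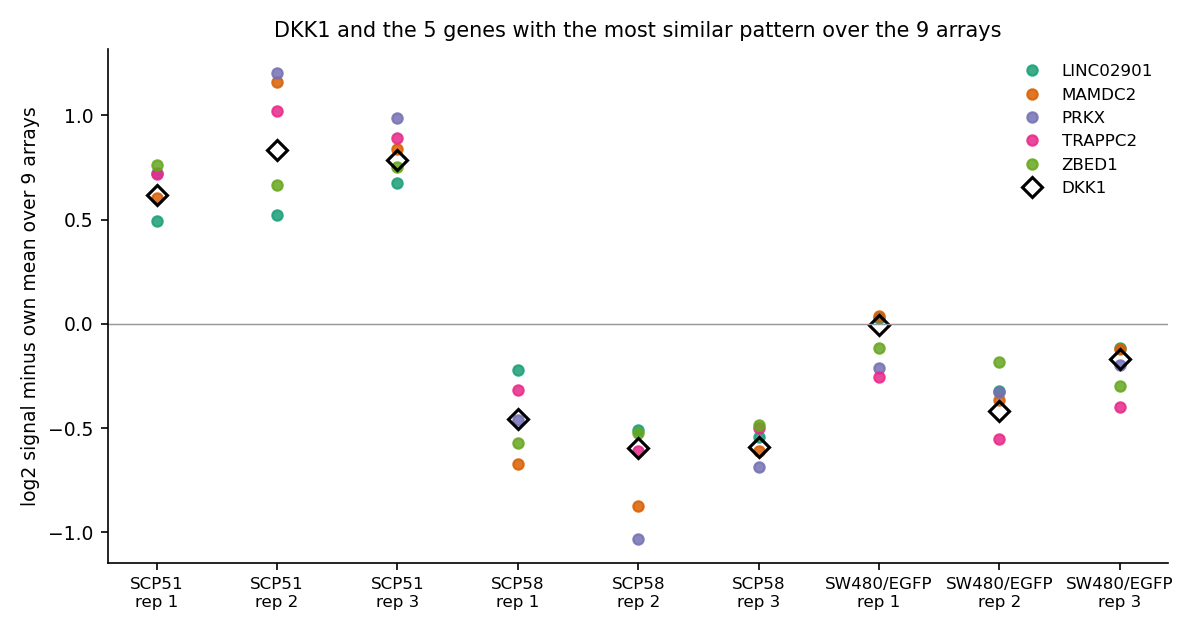
Log2 signal of DKK1 (diamonds) and the 5 genes most like it (dots) on each of the 9 arrays, each gene given relative to its own mean over the arrays. All 6 genes are above their means on the SCP51 arrays and below them on the SCP58 arrays.

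The other genes of the Wnt pathway were grouped by role. Among ligands and their export, 14 of 25 genes were tested, and WLS, which carries Wnt ligands to the cell surface, was the only one called. Its brightest probe set read 592, 611 and 535 in SCP51, 453, 390.3 and 441 in SCP58, and 323, 348 and 357 in SW480/EGFP. These groups did not overlap. The 2 other probe sets of WLS stood at -0.14 and 0.44 in SCP51 against SCP58, where none was called. They stood at 0.02 and 1.04 in SCP51 against the parent, where 1 was called. In SCP51 against the parent, where 2.96% of all genes were called, WLS was 0.76 ± 0.12 log2 units higher (limma adjusted p = 0.0139). That call was lost without SCP51 replicate 2 (adjusted p = 0.0588) or parent replicates 1, 2 or 3 (0.0674, 0.0534 and 0.063), in the fit blocked on replicate number (0.0649), in the fit of the 6 arrays alone (0.052) and when its probe sets were averaged (0.19). None of the 7 tested antagonists other than DKK1 and NOTUM was called by limma in any comparison, and none had an unadjusted p under 0.05. Of 17 tested genes of the destruction complex and its cytoplasmic partners none was called by limma, and an unadjusted p under 0.05 was reached by 0, 0 and 2 in SCP51 against SCP58, SCP51 against the parent and SCP58 against the parent. In the last comparison 8.6% of all genes had such a p, and in the others that share was not computed. The median log2 differences in SCP51 against the parent were -0.15 for the ligands, -0.09 for the antagonists and -0.03 for the destruction complex, beside -0.10 for all genes.

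In SCP51 the 12 receptors tested had medians of -0.23 against SCP58 and -0.20 against the parent, beside -0.105 and -0.10 for all genes. Of the 12, 1 was called, lower in SCP51 in both comparisons, beside 4.09% and 2.96% of all genes called in either direction. This was FZD3, a Frizzled receptor gene of chromosome 8, with signals of 44.5, 70.8 and 109 in SCP51, 227, 200.4 and 207 in SCP58, and 253, 231 and 253 in SW480/EGFP. Its log2 differences in SCP51 were -1.59 ± 0.27 from SCP58 and -1.81 ± 0.27 from the parent (limma adjusted p = 0.0201 and 0.0123). Its 3 other probe sets had the same sign in both comparisons, from -0.69 to -0.33, and none was called. The mean of its probe sets gave -0.89 and -0.84. The call against SCP58 was lost without SCP51 replicate 2 (0.0728) or SCP58 replicates 1, 2 or 3 (0.0574, 0.0786 and 0.0693). The call against the parent was lost without parent replicates 1, 2 or 3 (0.0586, 0.0515 and 0.062) and stood at an adjusted p of 0.05 without SCP51 replicate 2. With only the 6 arrays compared the adjusted p were 0.0837 and 0.0615.

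Among 14 tested nuclear partners of beta-catenin, the Groucho-type co-repressors TLE1 and TLE3 were called in opposite directions between SCP51 and SCP58. Over all genes 4.09% were called in that comparison. For SCP51 against the parent TLE1 alone of this list was called, beside 2.96% of all genes. TLE1 had signals of 134, 121 and 149 in SCP51, 309.6, 369.7 and 354 in SCP58, and 231, 303 and 240.1 in SW480/EGFP. It was lower in SCP51 than in SCP58 by a log2 difference of -1.35 ± 0.15 (limma adjusted p = 0.00389), and than in the parent by -0.93 ± 0.15 (adjusted p = 0.0147). Without SCP58 replicate 2 another of its probe sets was the brightest, and these values were -0.70 (adjusted p = 0.149) and -0.65 (0.114). The call against the parent was also lost without SCP51 replicate 2 (0.0618) or parent replicates 2 or 3 (0.0524 and 0.0614), in the fit blocked on replicate number (0.0524), in the fit of the 6 arrays alone (0.0543) and when its probe sets were averaged (0.0531). The 3 other probe sets of TLE1 had the same sign in both comparisons, from -0.75 to -0.32, and none was called. The mean of its probe sets gave -0.73 from SCP58 and -0.63 from the parent.

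TLE3 had signals of 208, 246 and 241 in SCP51, 138, 151 and 169 in SCP58, and 193, 223 and 199 in SW480/EGFP. It was higher in SCP51 than in SCP58 by 0.60 ± 0.13 (adjusted p = 0.0396). Of 20 alternatives 11 ended that call, among them each array left out except SCP51 replicate 1 (adjusted p from 0.0509 to 0.144). The fit blocked on replicate number gave an adjusted p of 0.0698. The 3 other probe sets of TLE3 had the same sign between SCP51 and SCP58, from 0.29 to 0.98, and 1 was called.

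Of 9 tested genes reported as intestinal beta-catenin targets, 2 were called higher in SCP51 than in SCP58, SOX4 and CD44, and none was called against the parent in either line by limma (3 in SCP51 and 2 in SCP58 had an unadjusted p under 0.05). Over all genes, 1.48% were called higher in SCP51 than in SCP58, and 8.6% had such a p in SCP58 against the parent. The median log2 difference of these 9 genes was 0.27 in SCP51 against SCP58, -0.04 in SCP51 against the parent and -0.27 in SCP58 against the parent, beside medians of all genes of -0.105, -0.10 and 0. SOX4, a transcription factor gene, had signals of 2931, 3396 and 3286 in SCP51, 1308, 711 and 916 in SCP58, and 2404, 2159 and 2455 in SW480/EGFP. It was higher in SCP51 than in SCP58 by 1.75 ± 0.20 (adjusted p = 0.00433), a call kept in all 20 alternatives. In SCP58 relative to the parent SOX4 stood at -1.301 ± 0.20 (adjusted p = 0.0578). It passed the threshold there without SCP51 replicate 1 (0.0307), without SCP58 replicate 1 (0.0169) and with array weights (0.00084). The 4 other probe sets of SOX4 ran from 0.32 to 2.02 in SCP51 against SCP58, and 2 were called. In SCP58 against the parent they ran from -1.57 to -0.24, and none was called.

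CD44 encodes a hyaluronan receptor. It had signals of 2085, 2164 and 2196 in SCP51, 1502, 1254 and 1693 in SCP58, and 2282, 2004 and 2369.7 in SW480/EGFP. The SCP58 arrays lay below all others, and SCP51 overlapped the parent. The difference of SCP51 from SCP58 was 0.55 ± 0.12 (adjusted p = 0.0459). Of 20 alternatives 13 ended that call, among them each array left out except SCP51 replicate 1 (0.0539 to 0.14), the fit blocked on replicate number (0.0642) and its probe sets averaged (0.268). The 8 other probe sets of CD44 ran from -0.26 to 0.82 in this comparison. Of these, 7 had the same sign and none was called.

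**Figure D5:**
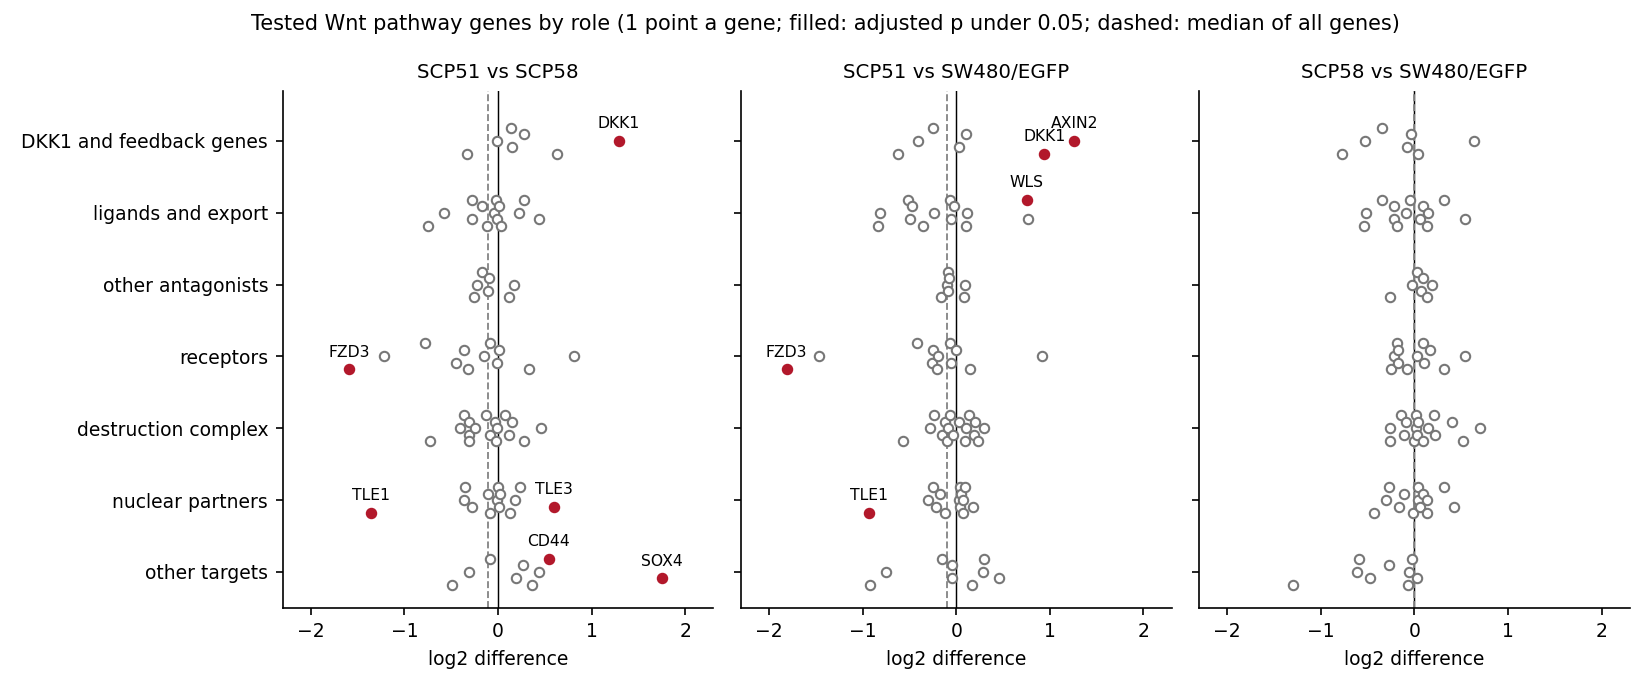
Log2 difference (horizontal axis) of each tested Wnt pathway gene, in rows by role, for SCP51 against SCP58, SCP51 against SW480/EGFP and SCP58 against SW480/EGFP. Filled and named points passed an adjusted p of 0.05 and the dashed line is the median of all genes tested. DKK1 and SOX4 are the farthest to the right for SCP51 against SCP58, FZD3 the farthest to the left, and no point is filled for SCP58 against SW480/EGFP.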

How the data were processed

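The deposited values are linear intensities, 1 for each probe set on each array. The submitters' processing notes name GCOS 1.4, and the labels' protocols describe biotin-labelled cRNA. How the authors scaled, background-corrected and summarised the probes is not given in the sources. No detection calls were used here, and the number of arrays limits the precision.

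Values below 1 (514 of them) were set to 1, log2 was taken and no scaling was added. Control probe sets, 62 in all, were dropped. Of the others, 41091 carried 1 gene symbol, 1801 several and 11721 none, and symbols were brought up to date by Entrez identifier with RefSeq genes of GRCh38.p14 (99.9% matched). A filter left 29132 probe sets and, with the brightest probe set of each gene, 13586 genes. limma 3.58.1 in R 4.3.3 fitted 1 mean per group to all 9 arrays, with an intensity trend, and was tested on simulated data. Figures were drawn with matplotlib 3.10.9.

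The members, the pathway lists and the rule for named genes (all members, up to 3 called genes of each list in each comparison with the smallest p, and the 5 genes most like DKK1) were chosen with earlier results of these data known. The brightest genes of lists without a call were left out. The alternatives were the filter, scaling, offset, trend, array weights, probe set choice, the 6 arrays compared, the replicate block and each array left out. For pathway genes other than the members they were added after seeing the data.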

Additional observations from a re-analysis of the deposited data

How the results depend on the processing

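The count of members called was 1 for SCP51 against SCP58, 2 for SCP51 against the parent and 0 for SCP58 against the parent. With array weights it was 3, 4 and 3 (over all 13586 genes, 1527, 1356 and 1351 were called). For SCP51 against the parent it was 1 when each gene's probe sets were averaged and 1 in the fit of the 6 arrays alone, DKK1 being kept in both. Leaving out each array in turn gave 1 to 1, 1 to 3 and 0 to 0. The other settings left the 3 counts as they were. The cause of these moves was not tested. The replicate numbers did not pair the arrays (correlations of deviations between same-numbered arrays from -0.22 to 0.134). With the replicate number as a block, DKK1 stood at 1.29 and 0.94 with adjusted p of 0.0177 and 0.0254, AXIN2 against the parent at 0.0205, and the counts of members called were 1, 2 and 0.

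Signs turned only in differences that were not called. For SCP51 against SCP58, NKD1 stood at -0.39 with the filter at the 65th percentile and at -0.12 when its probe sets were averaged, and NOTUM at 0.015 after quantile normalization, 0.056 after centring on the 75th percentile and 0.11 with array weights. For SCP51 against the parent, NKD1 stood at -0.019 with the stricter filter and -0.028 on averaging, and CD44 at 0.023 after quantile normalization, 0.014 after centring and 0.141 on averaging. For SCP58 against the parent, NKD1 stood at 0.367 with the stricter filter and 0.091 on averaging, NOTUM at -0.002 with array weights and FZD3 at 0.049 on averaging. Leaving out single arrays, the values for SCP51 against SCP58 ran from -0.105 to 0.093 for NOTUM and -0.015 to 0.236 for ZNRF3. For SCP51 against the parent they ran from -0.07 to 0.128 for NOTUM, -0.468 to 0.085 for RNF43 and -0.115 to 0.006 for CD44. For SCP58 against the parent they ran from -0.103 to 0.018 for NKD1 and -0.023 to 0.088 for NOTUM.

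Over all genes, 555, 402 and 19 were called in the 3 comparisons. Array weights gave 1527, 1356 and 1351, the 6 arrays alone 134, 151 and 31, and the replicate block 210, 167 and 6. Without SCP51 replicate 1 the counts were 1189, 726 and 75, and over the other single arrays left out they were 137 to 589, 122 to 476 and 0 to 20.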
